A study of Gallus gallus with 28 samples.

Results

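The genes described here are SLC15A1 and SLC15A4, a pair of proton-coupled peptide carriers, taken as every probe set that the array's gene annotation assigns to either symbol. Each has 1 probe set (gene ID 378789 for SLC15A1 and 416808 for SLC15A4), so they are 2 of 13009 named genes. Intestinal RNA of male chickens before and after hatch was hybridised to 28 chicken arrays, 4 at each of 7 ages: embryonic days 18 and 20 (e18 and e20), the hatching day, and days 1, 3, 7 and 14 after hatch (d1, d3, d7 and d14). All birds were male and no treatment is given; the design text names birds of lines A and B and a pair of pools, which are not assigned to arrays, and the labels give 6 birds per age without saying how they were divided over the 4 arrays. P-values therefore measure the spread between arrays, which holds line and pool and may be partly technical. The tissue label reads whole intestine, and the design text small intestine.

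Carriers of the SLC15 family move small peptides together with protons. SLC15A1 (PEPT1) sits in the brush border, the microvillus membrane that enterocytes turn to the gut lumen, and takes up the dipeptides and tripeptides left by protein digestion, driven by the acid layer at that membrane. SLC15A4 (PHT1), known mainly from mammals, lies in the membrane of endosomes and lysosomes, carries histidine and small peptides out of them, and in mammalian immune cells takes part in signalling from endosomal receptors. Around hatch a chick passes from yolk to feed.

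SLC15A1 rose steeply from e18 to d1 and then stayed on a plateau. Values are log2 intensities of the probe set. At e18 its 4 arrays read 10.02, 10.67, 9.76 and 10.25, and at e20 they read 12.54, 12.39, 11.72 and 12.42. On the hatching day they read 12.94, 13.30, 13.19 and 13.47. The arrays of these 3 ages do not overlap, and each age lies above the one before. At d1 the arrays read 14.21, 14.07, 14.33 and 14.40, above every earlier array.

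From d1 on the arrays of different ages lay in the same range. At d3 they read 14.04, 13.92, 14.15 and 14.14, at d7 14.13, 13.97, 14.62 and 14.63, and at d14 14.02, 14.16, 14.46 and 14.42. The lowest of these 16 arrays, including d1, was 13.92, above the highest hatching-day array of 13.47. SLC15A1 read above background in 28 of 28 arrays, by at least 6.76 on the log2 scale, background being the 95th percentile of the 541 probe sets whose IDs begin with NC- on the same array. On the linear scale its mean intensity was 1191 ± 328 (SD, n = 4 arrays) at e18, 5045 ± 1139 at e20, 9663 ± 1460 at hatch, 19596 ± 1939 at d1, 17143 ± 1226 at d3, 21151 ± 4889 at d7 and 19846 ± 2855 at d14. The plateau lay 1.08 to 1.41 below the highest probe set of the arrays on the log2 scale, against 5.11 below it at e18.

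**Figure D1:**
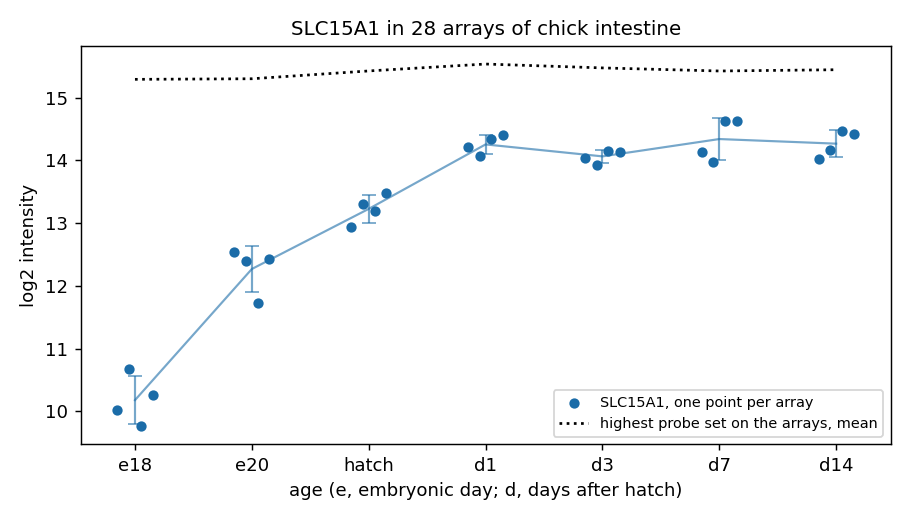
Log2 intensity of SLC15A1 (vertical axis) by age (horizontal axis): each point is an array, the line joins the means of 4 arrays, bars are ± 1 SD, and the dotted line is the mean over arrays of the highest probe set. The points climb from between 9.76 and 10.67 at e18 to between 14.07 and 14.40 at d1 and stay between 13.92 and 14.63 afterwards.

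Between the ends of the age series SLC15A1 rose by 4.09 ± 0.19 (SE, 4 arrays per age, limma adjusted p = 9.85e-16), which is 17.0-fold. Its rise from e18 to e20 alone was 2.09 ± 0.19 (4.26-fold, limma adjusted p = 1.48e-09), or 51.1% of the log2 rise from e18 to d14. From e20 to hatch it rose by 0.96 ± 0.19 (1.94-fold, limma adjusted p = 0.000233), which brought it to 74.6%, and from hatch to d1 by 1.03 ± 0.19 (2.04-fold, limma adjusted p = 0.000155), which brought it to 99.7%. So a rise of 2.00 ± 0.19 (3.99-fold) remained when d14 was set against e20 (limma adjusted p = 1.28e-09). Of all 8396 genes tested, 33.2% were called higher at d14 than at e18, 29.2% at e20 than at e18, 19.2% at hatch than at e20 and 12.5% at d1 than at hatch, and the arrays of both ages were free of overlap, with the later age higher, in 25.4%, 19.8% and 15.2% of genes over these 3 steps in turn. The median change of all genes tested from e18 to d14 was −0.07.

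After d1 no change in SLC15A1 passed the test. It differed by −0.19 (95% interval −0.58 to 0.19, limma adjusted p = 0.507) from d1 to d3, by 0.28 (−0.11 to 0.66, limma adjusted p = 0.364) from d3 to d7 and by −0.07 (−0.46 to 0.31, limma adjusted p = 0.975) from d7 to d14. Together these intervals run from −0.58 to 0.66, so changes of that size on the plateau are not excluded by them. Over all genes 25.7% were called from d1 to d3, 13.5% from d3 to d7 and 0.858% from d7 to d14. In ascending order of their means the ages ran e18, e20, hatch, d3, d1, d14 and d7. Of the 21 pairs of ages 15 were called for SLC15A1, and the 6 that were not are the pairs among d1, d3, d7 and d14. Of all genes tested, the share called in the pairs with e18 was 54.2% for e20, 65.8% for hatch, 72.5% for d1, 71.9% for d3, 72.7% for d7 and 73.7% for d14. In the pairs with e20 it was 43.3% for hatch, 55.8% for d1, 57.8% for d3, 64% for d7 and 67.6% for d14, and in those with hatch 35.2%, 37.2%, 47.4% and 54% for d1, d3, d7 and d14. On the plateau it was 35% for d1 against d7, 46% for d1 against d14 and 27% for d3 against d14, so SLC15A1 went uncalled in pairs in which many genes were called.

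Averaged over the 4 ages from d1 on and set against the embryonic pair, SLC15A1 was higher by 3.01 ± 0.11 (8.04-fold, limma adjusted p = 1.53e-17), a comparison in which 34.1% of genes were called higher. The F-test over the 7 ages gave a limma adjusted p of 8.79e-16, and 90.1% of genes were called by it. Without the e18 arrays, which also held pancreas transcripts as described below, its adjusted p was 1.56e-09.

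**Figure D2:**
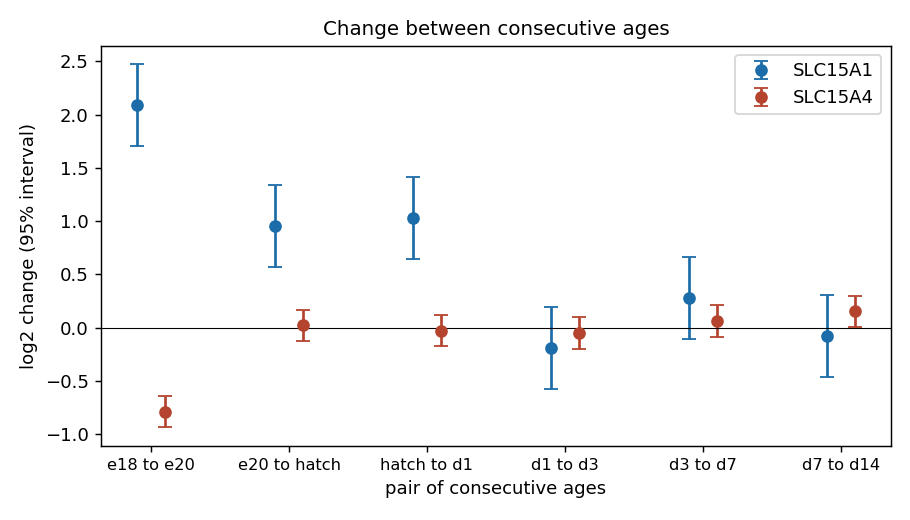
Log2 change between consecutive ages (vertical axis) for SLC15A1 and SLC15A4; points are limma estimates from 4 arrays per age and bars their 95% intervals. SLC15A1 lies above 0 in the steps from e18 to d1 and its bars cross 0 afterwards. SLC15A4 is lower by 0.79 at e20 than at e18, and from e20 to d7 its bars cross 0. The e18 arrays are those through which SLC15A4 passed the filter on low values, so its first step is given as a description.

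Enzymes that make substrates of SLC15A1 sit beside it in the brush border, and most peptidases on a list drawn up for them rose as well. The list is broad, and not all of its members sit in that membrane or make such substrates. Of 17 brush border peptidases listed 13 were tested, of which 12 rose and 1 fell from e18 to d14, with a median change of 2.81. Over all genes tested, 33.2% were called higher and 40.5% lower between these ages. Aminopeptidase N (ANPEP), which trims single residues from the amino end of peptides, went from 11.06 ± 0.20 (SD, n = 4) at e18 to 12.69 ± 0.30 at e20 and 13.68 ± 0.09 at d14, a rise of 2.62. Dipeptidyl peptidase 4 (DPP4), which releases dipeptides, rose by 6.83, of which 5.36 came between e18 and e20, and glutamyl aminopeptidase (ENPEP) rose by 4.16. ANPEP, DPP4 and ENPEP were each called (limma adjusted p at most 2.50e-13). Enteropeptidase (TMPRSS15), which activates trypsinogen in the gut lumen, lay below background at e18 and reached at least 19.5 times that level by d14; its mean was highest at d1, at 10.46, and was 7.38 at d14. The dipeptidase DPEP1 rose by 3.42 and the metallopeptidase MEP1A by 2.89, while the carboxypeptidase CPM fell by 2.16.

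Step by step, from e18 to e20 10 of the 13 peptidases rose and 1 fell, from e20 to hatch 9 rose and 0 fell, and from hatch to d1 6 rose and 1 fell, where 22.7% of all genes were called lower. In these steps, in turn, 29.2%, 19.2% and 12.5% of all genes were called higher. From d1 to d3, where SLC15A1 did not pass the test, 0 rose and 6 fell, with a median of −0.71. Of all genes tested, 15% were called higher and 10.7% lower in that step. Whether SLC15A1 and the peptidases differed in that step was not tested. SLC15A1 less the mean of the 13 peptidases, taken within each array, was 2.35 ± 0.17 (SD, n = 4) at e18 and 3.74 ± 0.04 at d14, a difference in change of 1.39 (exact two-sided permutation test, p = 0.0286, the smallest that 4 against 4 arrays allow, adjusted p = 0.0286 over 4 tests). With e20 in place of e18, a comparison added after seeing the data, the difference was 1.12 (exact permutation p = 0.0286). Across the 28 arrays the correlation of SLC15A1 with the mean of these peptidases was 0.96, and 0.86 for the deviations of each array from the mean of its age; these arrays share ages and RNA samples, and the values are descriptions.

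SLC15A1 also rose further than general markers of the epithelium did. EPCAM and CDH1, adhesion molecules of epithelial cells, rose by 1.31 and 1.07 from e18 to d14, the intestinal cadherin CDH17 by 1.80, and villin (VIL1), an actin-bundling protein of microvilli, rose by 2.01. All 6 measured epithelial markers were above background at every age. From e18 to d14 5 rose and CLDN3 fell by 0.41, against 33.2% of all genes called higher and 40.5% lower. Their mean over the list ranged from 11.31 to 11.38 over the e18 arrays, from 11.58 to 11.85 over the e20 arrays and from 12.36 to 12.53 over the d14 arrays. SLC15A1 less this mean, within arrays, was −1.17 ± 0.38 (SD, n = 4) at e18 and 1.83 ± 0.14 at d14, a difference in change of 3.00 (exact permutation p = 0.0286, adjusted p = 0.0286 over 4 tests), and 1.31 from e20 to d14 (exact permutation p = 0.0286), as added after seeing the data. In bulk tissue fewer cells of a type and less RNA per cell cannot be told apart.

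**Figure D3:**
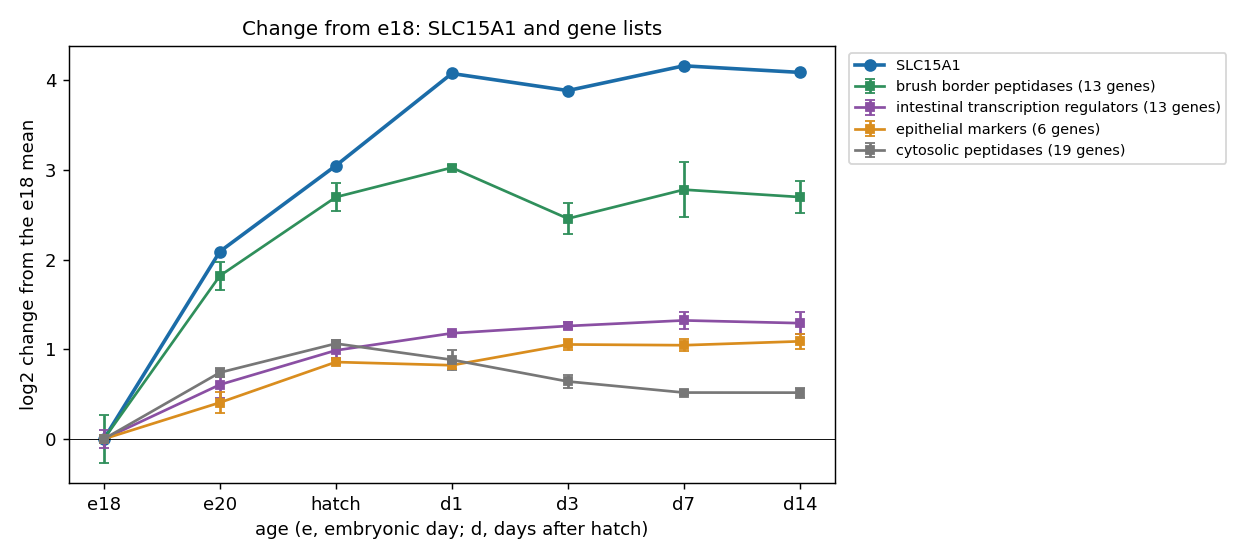
Log2 change from the e18 mean (vertical axis) by age for SLC15A1 and for the means of 4 gene lists, with bars of ± 1 SD over the 4 arrays of an age for the lists. SLC15A1 ends 4.09 above e18, the brush border peptidases 2.70 and the epithelial markers 1.09; the cytosolic peptidases are highest at hatch.

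Inside the cell, peptides taken up by SLC15A1 are cut to amino acids by cytosolic peptidases. Of 21 listed 19 were tested, of which 13 rose and 4 fell from e18 to d14 (median 0.57), against 33.2% of all genes called higher and 40.5% lower. Prolidase (PEPD), which splits dipeptides ending in proline, rose by 3.19, from 9.43 at e18 to 12.63 at d14. The dipeptidase CNDP2 rose by 1.73 and the aminoacylase ACY1 by 1.47. Against e20, 5 rose and 9 fell by d14 (median −0.17), with leucine aminopeptidase LAP3 falling by 1.60. Of all genes tested 27.2% were called higher and 40.4% lower (median −0.13), so these counts lie near the shares over all genes. The mean of the list was highest at hatch, at 9.37 ± 0.04 (SD, n = 4), and was 8.82 ± 0.06 at d14.

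Uptake by SLC15A1 needs protons at the brush border, which sodium-proton exchange restores. The exchanger SLC9A2 was at 3.26 at e18 and rose by 5.93 to d14, while SLC9A3 lay below background at e18 and e20 and by d14 was at least 9.87-fold above its e18 bound. SLC9A3 was first above background at hatch, with a mean of 3.65, and reached 5.07 at d1 and 6.30 at d14, so it could not be followed in the step in which SLC15A1 rose most. It was over the log2 value of 4 needed for testing only in arrays from hatch on, so its rise is given as a description. Membrane-bound carbonic anhydrase CA4 rose by 5.50. The list for apical proton supply and its PDZ partners also holds a cytosolic carbonic anhydrase and a basolateral sodium pump subunit. Of its 7 tested genes 6 rose, SLC9A3 included, and SLC9A3R2 fell by 1.18 from e18 to d14. In that comparison 33.2% of all genes were called higher and 40.5% lower. Amino acids leave the enterocyte through basolateral carriers, of which 7 were listed, 4 measured and 3 tested. All 3 rose from e18 to d14, against 33.2% of all genes called higher. SLC7A6 rose by 2.73, the aromatic amino acid carrier SLC16A10 by 2.94 and SLC43A2 by 3.13, with a change of 0.07 for SLC43A2 from e20 to d14. SLC7A7 was measured, but its mean was not above background at any age.

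Of 18 listed transcription regulators of the intestine 13 were tested, of which 10 rose and 1 fell from e18 to d14 (median 1.47). Over all genes tested, 33.2% were called higher and 40.5% lower between these ages. The fatty acid receptor PPARA rose by 3.28, the bile acid receptor NR1H4 by 2.71 and the epithelial factor ELF3 by 2.58, while KLF5, a factor of proliferating epithelium, fell by 2.57. CDX1 and CDX2, homeobox factors of intestinal identity, rose by 2.05 and 0.75. CDX1 reached its later level at e20 (8.98 against 8.90 at d14), and PPARA rose mainly later, from 4.50 at e20 to 7.22 at d14. Over the 28 arrays the mean of the list had a correlation of 0.99 with SLC15A1.

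The 8 genes whose values followed SLC15A1 most closely, by Pearson's r over the 28 arrays among the genes tested, had r between 0.981 and 0.990. They were the triglyceride lipase PNPLA2, PRR15, the glucose carrier SLC5A1, the phospholipase PLA2G7, the cytochrome CYP3A5, the tight junction protein CLDN10, the lipid kinase PIP5K1B and SLC9A2. Their rises from e18 to d14 ran from 2.86 for PIP5K1B to 7.63 for CLDN10. Over the 7 age means Spearman's rho with SLC15A1 was 1.00 for PRR15 and 0.64 for SLC9A2. These are descriptions over arrays that share ages.

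SLC15A4 stayed low and did not follow SLC15A1. The suffix of its probe set ID marks probes that can match several transcripts, so a similar transcript may add to its signal. At e18 its 4 arrays read 4.58, 4.57, 4.73 and 4.78, at e20 3.86, 3.85, 3.89 and 3.90, and on the hatching day 3.86, 3.92, 3.90 and 3.91. At d1 they read 3.89, 3.76, 3.91 and 3.93, at d3 3.59, 3.89, 3.90 and 3.91, and at d7 3.83, 3.92, 3.91 and 3.90. At d14 they read 4.12, 4.09, 3.95 and 4.00. The e18 arrays lie above all others, the 20 arrays from e20 to d7 lie between 3.59 and 3.93, and the d14 arrays lie just above these.

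All 28 arrays were above background for SLC15A4, by 1.67 on average at e18, by 0.73 at e20, by 0.41 at d1 and by 0.89 at d14, and by no less than 0.20. The gene entered the tests because 7 arrays were over a log2 value of 4. Of these 4 were from e18 and 3 from d14, and without e18 it would not have passed the filter of 4 arrays, as was the case for 207 of the 8396 genes tested. A gene that passes in this way had to be higher at e18 than at most other ages, so its calls against e18 are no support for a fall. GCRMA, the method that made the values, is known to compress differences between weak signals.

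**Figure D4:**
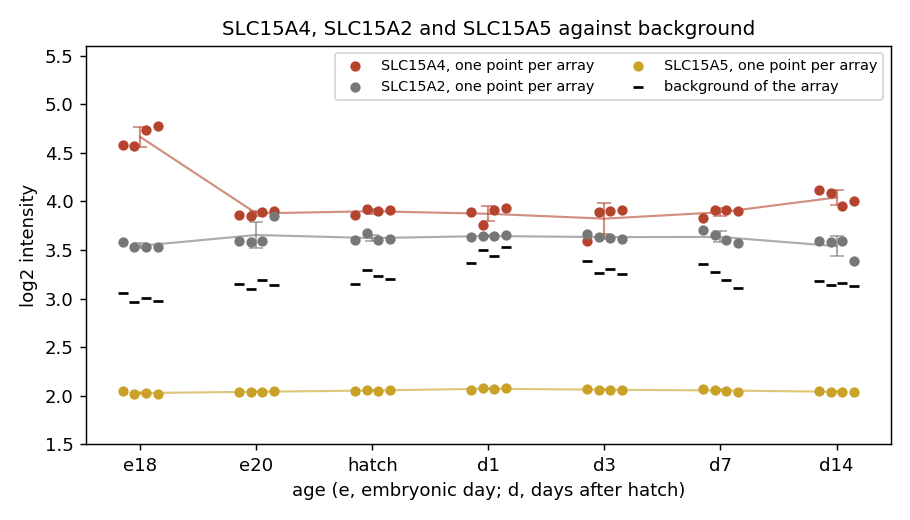
Log2 intensity (vertical axis) by age (horizontal axis) for SLC15A4, SLC15A2 and SLC15A5, with a point per array, lines through the means of 4 arrays, bars of ± 1 SD and short black marks for the background of each array. SLC15A4 is between 4.57 and 4.78 at e18 and between 3.59 and 4.12 later, SLC15A2 lies just above background and SLC15A5 below it in all 28 arrays.

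SLC15A4 changed by −0.79 ± 0.07 (SE) from e18 to e20 (limma adjusted p = 2.24e-09; 25% of genes called lower, and 21.2% lower without overlap) and by −0.62 ± 0.07 from e18 to d14 (limma adjusted p = 2.70e-08; 40.5% called lower); with a pseudocount of 16 these changes were −0.43 and −0.35. No later pair of consecutive ages was called: the changes were 0.02, −0.03, −0.05, 0.07 and 0.15 from e20 to hatch, d1, d3, d7 and d14 in turn (limma adjusted p between 0.464 and 0.837). The largest of them, from d7 to d14, had a 95% interval of 0.00 to 0.30. From e20 to d14 the level was higher by 0.16 ± 0.07 (limma adjusted p = 0.0472; 27.2% of genes called higher, and 24.6% higher without overlap), and without 1 array this call was lost in 19 of 28 refits. The F-test over the 7 ages gave a limma adjusted p of 5.50e-10, and 0.0986 without the e18 arrays. After against before hatch the change was −0.36 ± 0.04 (limma adjusted p = 4.60e-08, with 45.3% of genes called lower). The embryonic side of this comparison includes e18, through which SLC15A4 passed the filter. Its mean was 3.91 after hatch, against 3.88 at e20 and 4.66 at e18, so this call is no support for a fall at hatch.

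In ascending order of the means the ages ran d3 at 3.82, d1 and e20, d7, hatch, d14 at 4.04 and e18 at 4.66. From d3 to hatch no neighbours in this order differed beyond their spread. Hatch and d14 differed by 0.14, and their arrays do not overlap, but the pair was not called (limma adjusted p = 0.100; 54% of genes called). Of the 21 pairs 8 were called: e18 against each other age, and d14 against e20 and d3. The difference of d14 from d3 was 0.22 (limma adjusted p = 0.0264, with 27% of genes called), and 1 array of d3 lay at 3.59 while the other d3 arrays were at 3.89 or above.

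The changes of the pair were also compared within arrays, as log2 SLC15A1 less log2 SLC15A4. This difference grew by 4.71 from e18 to d14 and by 2.88 from e18 to e20, of which −0.62 and −0.79 are the changes of SLC15A4 from the age through which it passed the filter, so these are given as descriptions. It grew by 0.94 from e20 to hatch, by 1.05 from hatch to d1 and by 1.83 from e20 to d14. In each of these 3 comparisons the arrays of both ages did not overlap (exact two-sided permutation test, p = 0.0286, the smallest possible). SLC15A1 changed by 0.96, 1.03 and 2.00 in them and SLC15A4 by 0.02, −0.03 and 0.16. The differences therefore hold mostly the rise of SLC15A1 and are no support for a change of SLC15A4. The exact permutation adjusted p of 0.0457 was taken over 8 comparisons. These include both comparisons with e18 that are only descriptions, so the adjusted value is not read as a pass. The 3 later steps gave −0.14, 0.21 and −0.23 and did not pass (exact permutation, adjusted p between 0.229 and 0.343). Pearson's r of the pair over the 28 arrays was −0.79, and Spearman's rho over the 7 age means −0.21, which are descriptions only.

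Transcripts of the compartment in which SLC15A4 resides mostly rose by d14, while from e18 to e20 its proteases were mixed. Of 15 lysosomal proteases tested 5 rose and 5 fell from e18 to e20, and the list's mean went from 8.60 to 8.59. From e20 to d14 11 rose and 2 fell (median 0.96), against 27.2% of all genes called higher and 40.4% lower. From e18 to d14 10 rose and 3 fell (median 1.26), against 33.2% called higher and 40.5% lower. Some lysosomal genes went the way of SLC15A4 in the first step, among them the dipeptidyl peptidase CTSC, which fell by 0.44 from e18 to e20 and then rose by 1.24 to d14, and the membrane protein LAMP2, which fell by 2.22 and then rose by 2.05. Cathepsin S (CTSS), which trims peptides for class II antigen presentation, rose by 2.56, legumain (LGMN), an asparaginyl protease, by 2.75, and the amidase NAAA by 4.45, while CTSO fell by 2.09. SLC15A4 less the mean of the 15 proteases, within arrays, fell by 0.89 from e20 to d14 (exact permutation p = 0.0286), added after seeing the data. The list changed by 1.06 and SLC15A4 by 0.16, so this difference holds mostly the rise of the list and is no support for a change of SLC15A4. From e18 to d14 the same difference fell by 1.67, a value that contains the e18 level through which SLC15A4 passed the filter and is given as a description.

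For other parts of the lysosome the counts from e18 to d14 stand against 33.2% of all genes called higher and 40.5% called lower. Of 14 tested proteins of its membrane, small molecule carriers included, 8 rose and 2 fell from e18 to d14 (median 0.91). The amino acid carrier SLC36A1, which also runs on protons, rose by 3.62, the cationic amino acid carrier PQLC2 by 2.09, and the cystine carrier CTNS and the membrane protein LAMP1 by 1.12 and 1.13; SLC46A3, below background at e18, was at least 2.75-fold higher by d14, while NPC1, which exports cholesterol, changed by −1.02. SLC46A3 passed the filter only through arrays from d3 on, so its rise is given as a description. Of 16 proton pump subunits 11 rose and 2 fell (median 0.52), with the accessory subunit ATP6AP1 up by 1.87, ATP6V0A1 by 1.33 and ATP6V1C2 at −1.58. Of 14 genes of nutrient sensing at the lysosome 8 rose and 2 fell and 4 were not called (median 0.38), RRAGD by 0.86, folliculin (FLCN) by 0.83 and the transcription factor MITF by 0.67. Of 14 measured genes of endosomal nucleic acid and peptidoglycan sensing 9 were tested. All 9 rose to d14 from e18 and from e20, and from e20 27.2% of all genes were called higher. Among them were the RNA receptor TLR3, by 2.68 from e18, and the interferon regulatory factors IRF1 by 4.08 and IRF7 by 2.81. The means of TLR7, IRF5 and TRAF3, also on the list, were not above background at any age. The median of all genes tested was −0.07 from e18 to d14 and −0.13 from e20 to d14.

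Markers of the immune cells in which SLC15A4 is known from mammals went down from e18 to e20 and up by d14. The macrophage and dendritic cell list had a mean between 5.77 and 6.32 over the e18 arrays, between 4.79 and 5.14 over the e20 arrays and between 7.92 and 8.37 over the d14 arrays. Of its 9 tested genes 0 rose and 6 fell from e18 to e20, against 29.2% of all genes called higher and 25% lower. From e20 to d14 9 rose, with a median of 3.01, C1QA by 3.77 and CD74 by 4.28, and 27.2% of all genes were called higher. The scavenger receptor MARCO rose by 2.74 from e18 to d14. From e18 to e20 the list and SLC15A4 both went down, the list's mean from 6.07 to 4.99, and from e20 to d14 both means were higher at d14. In that second span the list gained more: SLC15A4 less the mean of the list fell by 2.98 (exact permutation p = 0.0286, added after seeing the data). The list changed by 3.15 and SLC15A4 by 0.16, so this difference holds mostly the rise of the list and is no support for a change of SLC15A4. From e18 to d14 the same difference fell by 2.69, given as a description because SLC15A4 was tested only through its e18 arrays. Over the 28 arrays the correlation of SLC15A4 with the mean of the macrophage and dendritic cell list was 0.03, and 0.12 for deviations from the age means.

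Lymphocyte and muscle markers were counted in the same comparison, for which the share over all genes was 33.2% higher and 40.5% lower. Of 10 B cell and plasma cell markers measured 4 were tested, of which 3 rose and 0 fell from e18 to d14, BTK by 1.88 and IGLL1 by 8.89, with JCHAIN below background at e18 and at least 323-fold higher by d14. Of 6 T cell markers tested 5 rose and 0 fell, the receptor subunits CD3E by 4.87 and CD3D by 4.00, with CD4 below background at e18 and at least 3.15-fold higher by d14. The mean of CD4 was above background only at d14, and that of JCHAIN only at d7 and d14. IGLL1 was not above background from e20 to d3. Genes high only at late ages pass the filter through those ages. The rises of CD4, JCHAIN and IGLL1, and the B cell and T cell counts that include them, are therefore given as descriptions. Of 6 smooth muscle markers tested 5 fell and 0 rose, by 0.56 for ACTG2, 0.53 for TAGLN and 0.53 for MYLK. The part of these cell types in the levels of SLC15A1 and SLC15A4 was not tested.

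The e18 arrays also held transcripts of the exocrine pancreas. Of 10 measured pancreas markers 9 were above background at e18, with a mean over the tested genes between 10.93 and 11.48 in the 4 arrays, and 3 were above it at e20, with means between 2.68 and 3.86. CELA1 was below background at both ages. Of 9 tested 8 fell and 0 rose from e18 to e20, where 25% of all genes were called lower and 29.2% higher. Genes high only at e18 pass the filter through that age, so this count is given as a description. The chymotrypsin CTRC went from 14.35 to 4.01, and the procarboxypeptidase CPB1 and the zymogen granule protein SYCN from 12.01 and 13.70 to below background. From e20 to d14 3 rose and 0 fell, against 27.2% of all genes called higher and 40.4% lower, and the d14 arrays had list means between 3.16 and 7.59. Their part in the e18 level of SLC15A4 was not tested, and neither was that of the macrophage list. Over the 28 arrays the correlation of SLC15A4 with the mean of the pancreas list was 0.87, and −0.10 for deviations from the age means.

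The 8 genes closest to SLC15A4 by Pearson's r over the 28 arrays, which lay between 0.938 and 0.945, were IL17REL, the chromatin remodelling subunit SMARCD1, the defensin AvBD1, the thymosin TMSB15B, the dynein adaptor BICD2, LECT2, the defensin DEFB4A and PDIA2, a disulfide isomerase known from the pancreas. AvBD1 is known from the granules of heterophils, the avian counterpart of neutrophils. All 8 had their highest mean at e18, which the choice by likeness to SLC15A4, itself highest at e18, builds in. The list is therefore given as a description. From e18 to e20 TMSB15B changed by −1.73 and DEFB4A by −6.18, and the e20 means of the other 6 were all under 3.19, the highest background of an e20 array. Of the 8, TMSB15B, LECT2 and DEFB4A would have passed the filter on low values without e18.

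**Figure D5:**
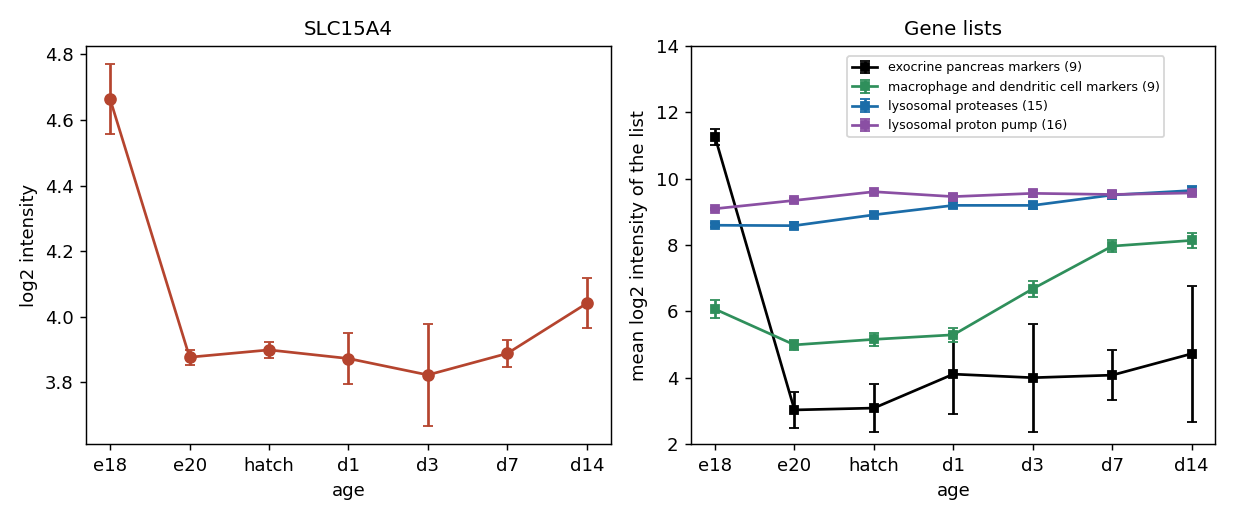
Left, log2 intensity of SLC15A4 by age, mean ± 1 SD of 4 arrays; right, the mean log2 intensity of 4 gene lists by age, ± 1 SD over arrays, with the number of genes tested in brackets. SLC15A4, the pancreas list and the macrophage list are all lower at e20 than at e18, the macrophage list at 4.99 against 6.07. For SLC15A4 this is a description, because it passed the filter on low values only through its e18 arrays. The lysosomal proteases go from 8.60 at e18 to 9.64 at d14 and the macrophage list reaches 8.14 at d14.

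Of the other SLC15 carriers on the array, SLC15A2 (PEPT2), the peptide carrier of the mammalian kidney tubule, read between 3.39 and 3.85 over the 28 arrays, at least 0.12 above background, and SLC15A5 read between 2.02 and 2.08, below background in all 28. Neither passed the filter on low values, so neither was tested. None of 5 measured kidney tubule markers was tested either. SLC15A3 has no probe set in the annotation used.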

How the data were processed

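The deposited table holds linear intensities, 1 value per probe set in each array, made by the authors with GCRMA, per the submitters' processing notes; its version is not given in the sources used here. Raw scans were not used. Control probe sets (153) and probe sets with several genes or none were left out, log2 was taken, and for each of 13009 symbols the probe set of highest mean over the arrays was kept. Genes over a log2 value of 4 in at least 4 arrays were tested (8396). A mean per age was fitted to the 28 arrays in R 4.3.3 using limma 3.58.1 (lmFit, contrasts, eBayes, 21 residual and 3.13 prior degrees of freedom); two-sided p-values received the Benjamini-Hochberg adjustment across these genes, and adjusted values under 0.05 were called. The fit was tested on simulated data. Single within-array differences were compared by exact permutation with scipy 1.17.1. Where an age mean was below background, the fold is a bound against that background. Replicate numbers follow the sample records; 0 pairs of arrays held identical values. SLC15A1 and SLC15A4 and the gene lists were chosen with earlier results of these data known. Named genes are the pair in every array, its measured relatives, from each list chiefly the 3 called genes with the largest change from e18 to d14, and the 8 genes closest to each of the pair; others (ANPEP, DPEP1, MEP1A, CPM, LAP3, SLC9A3R2, KLF5, CDX1, CDX2, CDH1, CLDN3, CTSC, CTSO, CTNS, LAMP1, LAMP2 and NPC1) were chosen after their values were seen. Protein and promoter sequences were not used here. Alternatives covered filter, normalization, floor, pseudocount, array weights, prior, samples fitted and single arrays left out. The number of arrays limits the precision.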

Additional observations from a re-analysis of the deposited data

Results flagged for a closer look

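Within an age the lowest or highest array was checked for standing apart from the other 3 in the 4 SLC15 genes at 7 ages, 28 checks of which chance flags about 1 in 20; 5 were flagged. For SLC15A4 the lowest d3 array read 3.59 and the others 3.89 to 3.91. For SLC15A2, which lies near background and was not tested, the highest array read 3.58 at e18, 3.85 at e20 and 3.67 at hatch, against highest other readings of 3.53, 3.59 and 3.61, and the lowest d14 array read 3.39 against 3.59 and above. No array of SLC15A1 was flagged.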

How the results depend on the processing

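SLC15A1 kept direction and call in all 9 contrasts and the F-test under every alternative run on all arrays of the ages compared (10 each), its change from e18 to d14 lying between 4.00 and 4.22. With single arrays left out that change lay between 3.95 and 4.25 and no call changed, though its uncalled change from d7 to d14 ranged from −0.20 to 0.025. The calls of SLC15A4 against e18 held wherever it was tested, at −0.62 to −0.35 for d14 and −0.79 to −0.43 for e20, weakest with the pseudocount of 16. They remain no support for a fall, because SLC15A4 passed the main filter only through its e18 arrays. Its rise from e20 to d14 was not called with quantile normalization (0.11), the pseudocount of 16 (0.081), an intensity trend with robust prior (0.16) or only the ages compared (0.16), and ranged from 0.14 to 0.19 with single arrays left out (adjusted p 0.0221 to 0.126). The F-test of SLC15A4 was not called without e18 (adjusted p = 0.0986). Its uncalled change from hatch to d1 turned to 0.011 with quantile normalization and 0.13 with arrays centred on the median, and ranged from −0.045 to 0.012 with single arrays left out. Its uncalled changes from d1 to d3 and from d3 to d7 then ranged from −0.088 to 0.028 and from −0.012 to 0.095. The cause was not tested.

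The growth of SLC15A1 less SLC15A4 lay between 4.55 and 4.91 (e18 to d14), 1.65 and 1.94 (e20 to d14), 2.72 and 3.07 (e18 to e20), 0.75 and 1.03 (e20 to hatch) and 0.97 and 1.13 (hatch to d1) with single arrays left out. SLC15A1 less epithelial markers lay between 2.85 and 3.15, less peptidases between 1.35 and 1.47, and SLC15A4 less proteases between −1.73 and −1.60 and less macrophage markers between −2.81 and −2.57. None of these passed with 3 against 4 arrays, where the smallest exact permutation p is 0.0571. The genes called from e18 to d14 numbered 5171 to 7365. With the stricter filter SLC15A4 was not tested, and with 1 probe set per gene no other probe set could be tried. No paired analysis was possible because the labels give no replicate numbers shared between ages.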

Other observations

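In the order of the sample records, arrays 3 and 4 of d1, d3, d7 and d14 each read higher for SLC15A1 than arrays 1 and 2 of the same age, by 0.58 on average at d7 and 0.35 at d14, and this did not hold at e18, e20 or hatch. For SLC15A4 it held at e18, e20, d1 and d3 and not at the other 3 ages. The labels do not say how arrays of an age differ.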
